A study of Mus musculus with 6 samples.

Results

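The 9 genes described here encode liver-enriched transcription factors and were picked by gene symbol: Hnf4a, Foxa1, Foxa2, Foxa3, Nr1h4, Nr1i2, Nr1i3, Nr0b2 and Cebpa. All 9 are listed among the 35415 genes of the deposited table, and all 9 had at least 1 count in some library. The tissue was the lateral septum (LS), a forebrain nucleus of inhibitory neurons, from wild-type female C57BL/6 mice. The olanzapine group ate chow with olanzapine, an antipsychotic drug, for 12 weeks, and the control group ate the same maintenance chow without the drug for 12 weeks. Each group had 3 libraries, each from the tissue of 3 mice pooled, so n = 3 pools per group throughout, and p-values measure only the spread between pools. The deposited columns of the olanzapine group carry a short name for metabolic syndrome, and their group was taken from the treatment label. All 9 septal neuron markers were detected, with sums of 2512 to 3156 CPM, a count scaled to the library total, in the controls and 2126 to 2801 CPM with olanzapine. Markers of choroid plexus, a neighbouring tissue of the ventricles, exceeded the septal sum in control pool 3 (7395 against 2512 CPM) and olanzapine pool 2 (4636 against 2407 CPM), and in control pool 2 they came to 2665 against 2805 CPM.

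These factors form the regulatory core of the hepatocyte, the main cell of the liver. HNF4A is a nuclear receptor that keeps hepatocyte genes active, and it is also found in intestine, kidney and pancreatic islets. FOXA1, FOXA2 and FOXA3 are forkhead proteins that open chromatin in liver and other organs of endodermal origin, and FOXA1 and FOXA2 also act in midbrain dopamine neurons. NR1H4, known as FXR, senses bile acids and induces NR0B2, known as SHP, which lacks a DNA-binding domain and represses bile acid synthesis. NR1I2 and NR1I3, known as PXR and CAR, sense foreign chemicals and induce drug-metabolizing enzymes. CEBPA is a basic leucine zipper factor of hepatocytes, adipocytes and myeloid cells, and microglia, the myeloid cells of brain, express it too.

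The genes were compared in raw counts, control pools against olanzapine pools, and since this contrast chose the set, its values are a description with no test. Every olanzapine pool exceeded every control pool in 3 of the 9 genes, Hnf4a, Nr1i3 and Foxa3, 0 lay below without overlap, and the groups overlapped in the other 6. Over all 26020 genes with any count, such a separation above the controls was seen in 8.88% and one below them in 9.07%. Among genes at 0 in every control pool the share above was 6.37%. Because the contrast chose the genes, nothing is read from these shares. The sequences upstream of the start sites of these 3 genes are shown because they are the members that were higher in every olanzapine pool. They are the 250 bases before each RefSeq start, build GRCm38.p6, written 5′ to 3′ on the strand of the gene. Hnf4a has 2 RefSeq starts 40.3 kb apart. The downstream one is the P1 promoter used in adult hepatocytes, and the upstream one is the P2 promoter known from pancreatic islets. Capitals mark a TATA box (TATAAA), found in the window of Foxa3 alone among these 4.
Hnf4a P1, chr2:163546905-163547154, plus strand: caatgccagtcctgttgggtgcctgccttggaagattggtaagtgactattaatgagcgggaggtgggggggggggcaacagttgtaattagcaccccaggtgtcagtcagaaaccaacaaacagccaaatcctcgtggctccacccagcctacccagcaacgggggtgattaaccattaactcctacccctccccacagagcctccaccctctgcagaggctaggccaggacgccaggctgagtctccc
Hnf4a P2, chr2:163506607-163506856, plus strand: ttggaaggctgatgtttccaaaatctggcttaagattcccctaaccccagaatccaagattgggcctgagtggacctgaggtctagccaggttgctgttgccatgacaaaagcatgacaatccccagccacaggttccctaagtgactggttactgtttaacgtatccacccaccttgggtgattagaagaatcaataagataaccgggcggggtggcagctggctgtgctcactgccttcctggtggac
Nr1i3, chr1:171213720-171213969, plus strand: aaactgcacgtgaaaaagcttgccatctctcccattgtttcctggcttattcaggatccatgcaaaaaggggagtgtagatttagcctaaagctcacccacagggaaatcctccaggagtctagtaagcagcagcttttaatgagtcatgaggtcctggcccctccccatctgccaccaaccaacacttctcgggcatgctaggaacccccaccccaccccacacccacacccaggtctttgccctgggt
Foxa3, chr7:19023540-19023789, minus strand: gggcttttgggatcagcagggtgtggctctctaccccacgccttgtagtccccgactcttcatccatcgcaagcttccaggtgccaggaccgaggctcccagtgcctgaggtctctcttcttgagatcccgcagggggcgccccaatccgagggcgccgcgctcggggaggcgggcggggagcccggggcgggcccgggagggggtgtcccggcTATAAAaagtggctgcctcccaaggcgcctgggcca

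The TATA box of Foxa3 lay 36 bases before its start, and 12.4% of 32817 RefSeq windows of the same length held TATAAA on either strand. Both windows of Hnf4a and the window of Nr1i3 held none of the motifs searched on either strand, which also included CAAAGTCCA for HNF4, AGGTCA for nuclear receptors, TGTTTAC for FOXA and TTGCGCAA for CEBP. These motifs were present in 0.384%, 14.0%, 3.16% and 0.165% of all windows. These are matches of letters only, and counts per gene do not tell which start was used.

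Hnf4a had 1, 1 and 1 counts in control pools 1 to 3 and 32, 34 and 35 counts in olanzapine pools 1 to 3. The 3 olanzapine pools lay far above the controls and close to each other. From the summed counts, 3 against 101, and library sizes scaled by TMM, the ratio was 34.2, with an exact 95% interval of 11.4 to 168 that covers counting error only. Without any single pool the ratio stayed between 33.5 and 34.6. Hnf4a lies at chr2:163506808-163572910 on the plus strand in GENCODE for GRCm38. Hnf4aos, an antisense RNA that overlaps it without sharing exons, was listed at 0 counts in all 6 pools.

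Nr1i3, the CAR receptor, had 0, 0 and 0 counts in the controls against 2, 13 and 5 counts in olanzapine pools. Olanzapine pool 2 held most of these counts. A sum of 0 among 119049502 control counts allows up to 3 counts, or 0.0252 CPM. On this floor Nr1i3 was at least 6.77-fold higher in the olanzapine pools, and at least 3.59-fold without olanzapine pool 2. Such bounds take the olanzapine counts as exact, so with their counting error the fold can be lower. The bound is between 4.50 and 4.53 without any 1 control pool, since the same floor then stands for fewer counts. In GENCODE for GRCm38, Nr1i3 (chr1:171213970-171220701, plus strand) shares 3304 exonic bases with Tomm40l on the other strand, which had 2637, 2547 and 2606 counts in the controls and 2729, 2936 and 2939 with olanzapine. Tomm40l was thus also above the controls in every olanzapine pool, and its part in the counts of Nr1i3 was not tested. The deposited FPKM imply a length of 2.31 kb for Nr1i3, against 4414 exonic bases in GENCODE. The overlap in the gene model that was counted is therefore not known. The strand setting of the counting is also not given in the sources used here, so the counts of Nr1i3 are uncertain.

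The 3 Foxa genes had different patterns. Foxa3 (chr7:19013284-19023538, minus strand) had 0, 0 and 0 counts in the controls against 3, 2 and 3 in olanzapine pools. On the same floor, with the olanzapine counts again taken as exact, Foxa3 was at least 2.71-fold higher. The bound was 1.80-fold to 1.81-fold when any 1 control pool was left out. Foxa2 (chr2:148042877-148046969, minus strand) had 2 counts in olanzapine pool 2 and 0 in the other 5 pools, so no fold is given. Foxa1 (chr12:57540628-57546916, minus strand) had its higher counts in the controls, with 7, 2 and 12 counts in the controls against 2, 1 and 3 in olanzapine pools. Its groups overlapped, and the ratio of summed counts, olanzapine over control, was 0.290 with a counting interval of 0.0958 to 0.743. Without control pool 3, which held the most counts, the ratio was 0.451. Midbrain dopamine neuron markers, the cells of brain best known for FOXA1, summed to 6.22 to 9.06 CPM in the control pools and 6.31 to 11.2 CPM in the olanzapine pools, and their part in these counts was not tested.

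The bile acid pair was near the limit of detection in both groups. Nr1h4 (chr10:89454234-89533585, minus strand) had 5, 6 and 10 counts in the controls against 1, 13 and 8 in olanzapine pools. Its ratio was 1.06 with a counting interval of 0.558 to 2.03, and it ranged from 0.659 without olanzapine pool 2 to 1.51 without olanzapine pool 1, so its direction is not settled. Nr0b2 (chr4:133553376-133556536, plus strand), the repressor that FXR induces, had 5, 1 and 2 counts in the controls against 1, 3 and 0 in olanzapine pools. The ratio of Nr0b2 was 0.508 with a counting interval of 0.112 to 1.89, and it was 0.905 without control pool 1, 0.192 without olanzapine pool 2 and 0.762 without olanzapine pool 3. A difference between the groups was not detectable at this depth for either gene.

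Nr1i2 (chr16:38248323-38294824, minus strand), the PXR receptor, had 0, 6 and 10 counts in control pools 1 to 3 and 4, 14 and 4 counts in olanzapine pools 1 to 3. The groups overlapped, and the counts varied widely within each group. The ratio was 1.40 with a counting interval of 0.700 to 2.84. The direction turned without control pool 1 (0.934) and without olanzapine pool 2 (0.769), and the ratio was 2.48 without control pool 3. Choroid plexus markers, with Ttr as the most abundant, differed widely between pools and not by group, at 101, 2665 and 7395 CPM in control pools 1 to 3 and 1142, 4636 and 65.5 CPM in olanzapine pools 1 to 3. Both Nr1h4 and Nr1i2 had their highest control count in control pool 3 and their highest olanzapine count in olanzapine pool 2, the pools with the highest choroid plexus sum of each group. The part of choroid plexus in these counts was not tested.

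Cebpa was the most abundant member, and its groups differed by less than the spread between pools. It had 294, 519 and 424 counts in the controls against 364, 476 and 424 in olanzapine pools, so the lowest and the highest counts were both in control pools. The ratio was 1.04 with a counting interval of 0.958 to 1.12, and it lay between 0.910 and 1.19 without any 1 pool. Cebpa lies at chr7:35119293-35121928 on the plus strand, and an antisense gene, Gm45091, shares 51 exonic bases with it and was not analysed here. The 8 microglia markers summed to 342 to 360 CPM in the control pools and 333 to 388 CPM in the olanzapine pools. Adipocyte markers were near 0, with Lep at 0 in all pools and a highest sum of 0.257 CPM.

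**Figure D1:**
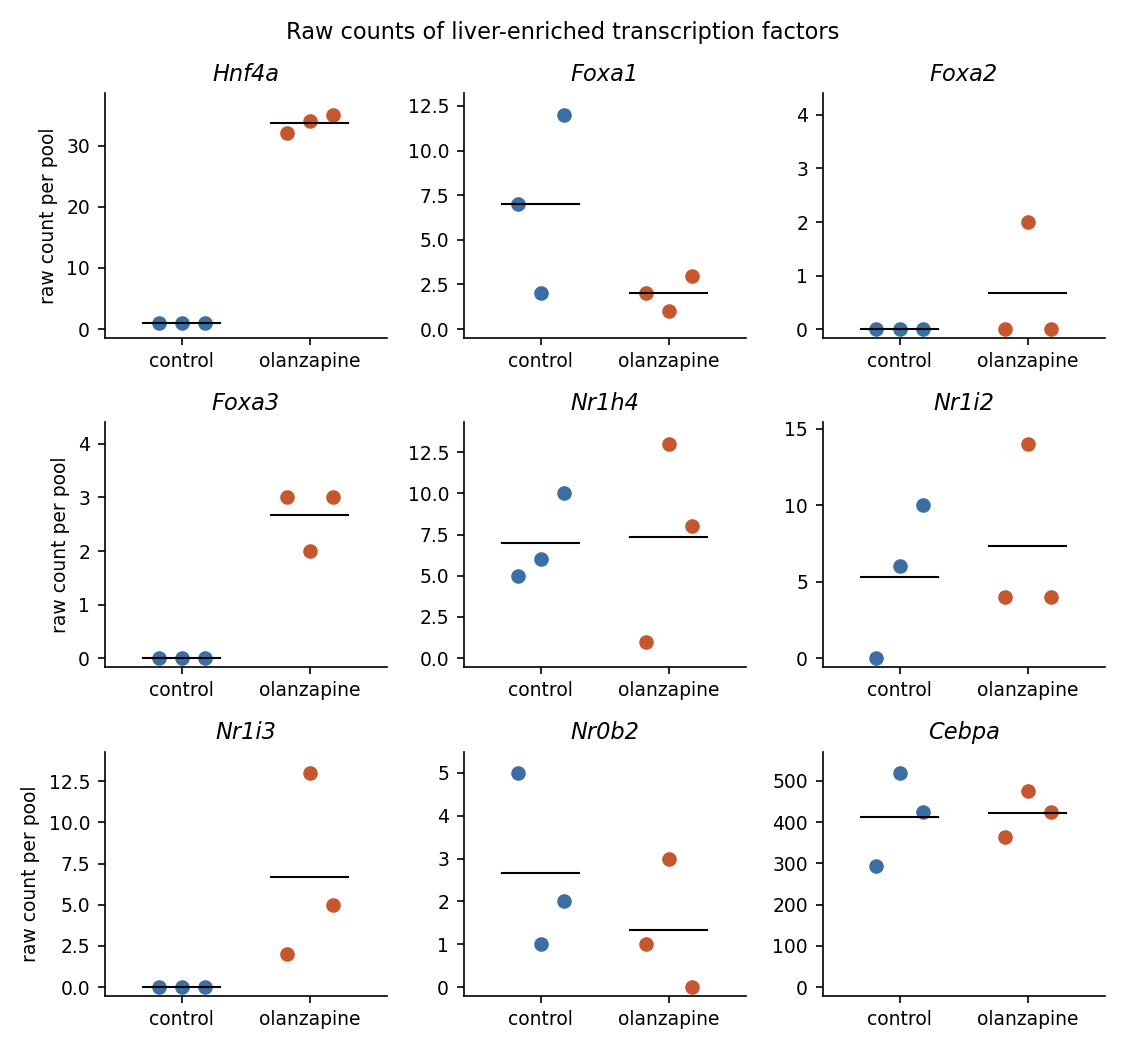
Raw counts of the 9 transcription factor genes in each pool (points, pools 1 to 3 from left to right within a group) with the group mean (line), on a separate count axis per gene. Hnf4a, Nr1i3 and Foxa3 exceed every control pool in each of the 3 olanzapine pools, Cebpa lies between 294 and 519 counts in both groups, and the remaining genes overlap.

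Levels of different genes were compared in FPKM, which the authors computed per kilobase of transcript. In the control group the order of mean FPKM was Cebpa, Nr1h4, Nr0b2, Nr1i2, Foxa1 and Hnf4a, with Foxa2, Foxa3 and Nr1i3 at 0. Cebpa had 3.94 ± 1.08 FPKM (SD, n = 3 pools), Nr1h4 0.0688 ± 0.0265 FPKM and Hnf4a 0.00536 FPKM, which is 1 count per pool. The ranges of Nr1h4, Nr0b2, Nr1i2 and Foxa1 overlapped, so their order is not settled. In the olanzapine group Hnf4a was second to Cebpa, with 0.186 ± 0.00794 FPKM (SD, n = 3) against 4.16 ± 0.567 FPKM (SD, n = 3). Its lowest pool, at 0.177 FPKM, lay above the highest pool of every other member except Cebpa, which was 0.147 FPKM in Nr1i3. Nr1i3, Nr1h4 and Nr1i2 followed with means of 0.0753, 0.0743 and 0.0708 FPKM and did not differ beyond their spread. Foxa3, Nr0b2, Foxa1 and Foxa2 came last, from 0.0340 down to 0.00736 FPKM.

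The hepatocyte markers were higher in the same pools as Hnf4a, and their part in its counts was not tested. Whether RNA from liver cells entered these brain libraries was not tested either, for Hnf4a or for the target genes below. Over 15 of them, chosen with earlier results of these libraries known, the summed level was 14.4 to 26.1 CPM in the control pools and 287 to 352 CPM in the olanzapine pools. Of the 14 that could be tested, 5 of which met the filter on low counts through the olanzapine pools only, 14 passed both thresholds upward and 0 downward, against 0.95% of all 17255 tested genes called higher and 0.058% called lower, or 1.01% in either direction. A gene passed at an adjusted p under 0.05 (edgeR, Benjamini-Hochberg) if its log2 fold change also lay beyond 1 in either direction. Their median log2 fold change was 3.97, beside 0.00389 for all tested genes. In bulk tissue, more cells of a type and more RNA per cell cannot be told apart. Some markers of other organs that use the same factors were at 0 and others were not. The intestinal regulators Cdx1 and Cdx2, the kidney genes Umod and Cdh16 and the pancreatic genes Pdx1, Ptf1a, Ins1, Gcg and Cela2a had 0 counts in all pools. The summed levels of the intestine, kidney and pancreas lists reached at most 4.14, 4.38 and 0.910 CPM. The most abundant of the intestine list was Lgals4, with 54, 115 and 56 counts in the controls and 99, 104 and 97 with olanzapine. In the kidney list it was Slc22a6, with 12, 57 and 36 counts and 144, 35 and 5 in the same order of groups. In the pancreas list Pnlip had 6 to 28 counts per pool. Fabp2, an intestinal fatty acid binding protein named after its values were seen, had 0 counts in every control pool and 3, 5 and 6 with olanzapine. The part of these tissues in the members' counts was not tested. Neutrophil and red cell markers summed to 46.4 to 60.9 CPM in the control pools and 46.3 to 56.4 CPM in the olanzapine pools, with Elane at 0.

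**Figure D2:**
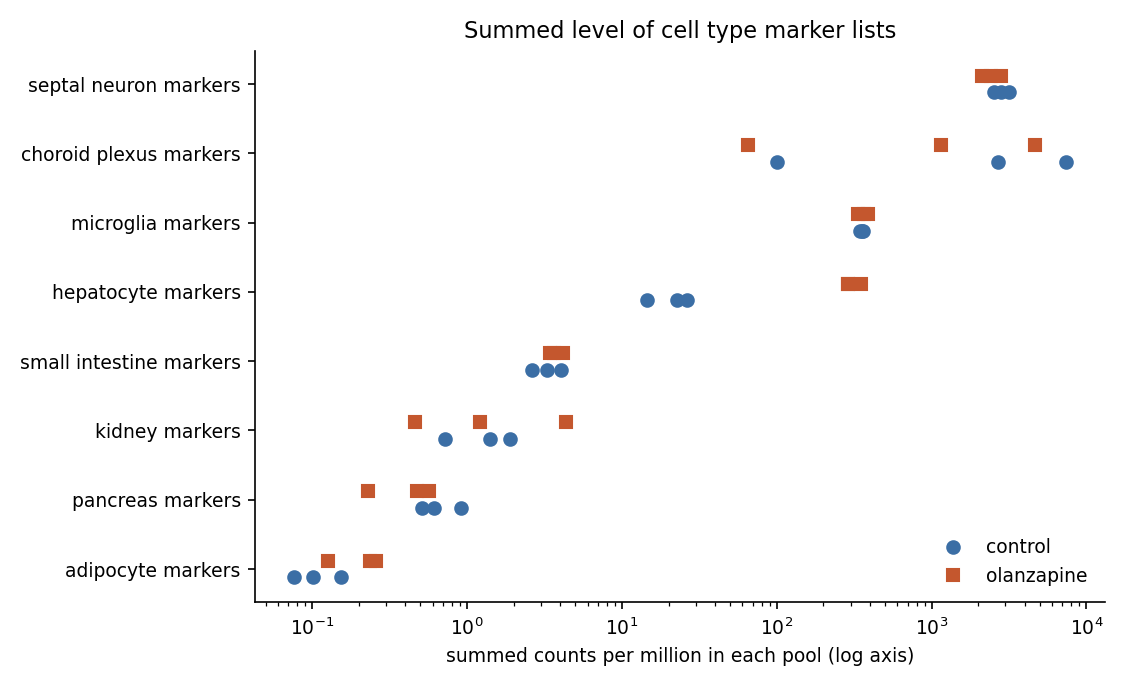
Summed CPM of each marker list (log axis) in the 3 control pools (circles) and the 3 olanzapine pools (squares). The hepatocyte list separates the groups, from at most 26.1 CPM to at least 287 CPM, while the choroid plexus list ranges from 65.5 to 7395 CPM without separating them.

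The member counts were also set beside those of Alb, which encodes serum albumin. Alb had 460, 507 and 268 counts in the controls against 5049, 6632 and 5345 in olanzapine pools, a ratio of 14.0 with a counting interval of 13.2 to 14.8. Hnf4a made 6.34, 5.13 and 6.55 counts per 1000 Alb counts in olanzapine pools 1 to 3. In control pools 1 to 3 it made 2.17, 1.97 and 3.73, each resting on 1 count. Summed over pools it made 5.93 (exact 95% interval 4.83 to 7.21) in the olanzapine group and 2.43 (0.500 to 7.12) in the control group. These intervals overlapped. For Nr1i3 the sum was 1.17 per 1000 Alb counts (0.717 to 1.81) in the olanzapine group, and its 0 counts in the control group allowed up to 2.43 on the floor of 3 counts. For Foxa3 the olanzapine value was 0.470 (0.203 to 0.926) with the same upper limit in the control group.

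Since Alb itself was 14.0-fold higher with olanzapine, a gene with similar counts in both groups has fewer counts per Alb count there by construction. Cebpa, with a count ratio of 1.04, made 1002 per 1000 Alb counts in controls and 74.2 with olanzapine. Foxa1 made 17.0 per 1000 Alb counts (10.5 to 26.1) in the control group and 0.352 (0.129 to 0.767) in the olanzapine group. Nr1h4 made 17.0 (10.5 to 26.1) and 1.29 (0.810 to 1.96), and Nr1i2 made 13.0 (7.38 to 21.1) and 1.29 (0.810 to 1.96). Nr0b2 made 6.48 (2.79 to 12.8) and 0.235 (0.0640 to 0.602). These values describe the scale of the counts beside Alb, and no difference between the groups is read from them.

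**Figure D3:**
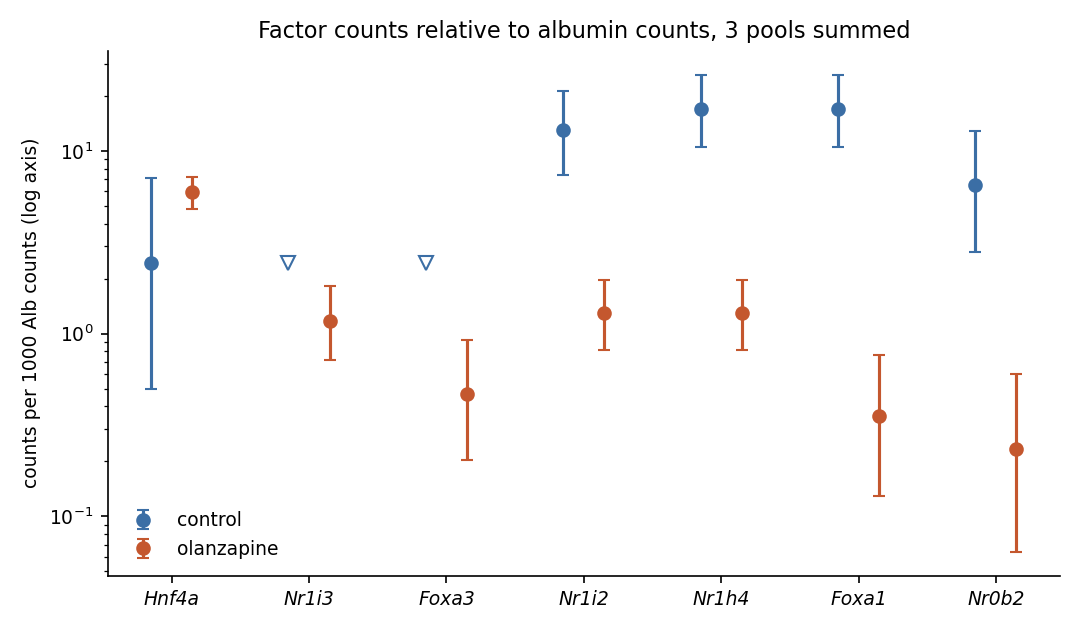
Counts of 7 members per 1000 Alb counts (log axis), summed over the 3 pools of a group, with exact 95% intervals for counting error, where open triangles mark the limit of 3 counts for a gene at 0. Hnf4a is at 2.43 and 5.93 with overlapping intervals, and Nr1i2, Nr1h4, Foxa1 and Nr0b2 are lower with olanzapine, where the denominator Alb was itself 14.0-fold higher.

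Only 2 members, Hnf4a and Cebpa, had enough counts for the filter of the edgeR fit, and Hnf4a passed it through the olanzapine pools alone. For these 2 the genes with the most similar pattern over the 6 pools were found by Pearson's r of log2 CPM, a description without a test in which the points share library and group. The closest to Hnf4a were Ugt2b36 (r = 1.00), Ambp (0.999), Zfp944 (0.999), Serpina1a (0.998) and Orm1 (0.997). All but Zfp944 were called higher. Zfp944 had 429, 437 and 424 counts in the controls against 587, 619 and 614 in olanzapine pools, a log2 fold change of 0.52. Ambp, which encodes the plasma protein precursor of alpha-1-microglobulin and bikunin, had 8, 9 and 8 counts in the controls against 209, 226 and 207 in olanzapine pools. Ugt2b36, a glucuronosyltransferase, had 2, 2 and 2 counts in the controls against 22, 23 and 25 in olanzapine pools, although genes of this family and of the Serpina1 family have near-identical copies. With counts of 1 in every control pool, the r of Hnf4a is close to the group contrast itself, so any gene with a clean group difference comes near 1. The closest to Cebpa were Ppp4r3a (0.992), Cep55 (0.991), Cdon (0.988), 9430041J12Rik (0.986) and Cd59b (0.981), and none of them was called between the groups.

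The known target genes of these factors were listed by factor, as 44 distinct genes in 5 lists, with earlier results of these libraries known. Of the 28 that could be tested, 12 were called higher and 0 lower, against 0.95% and 0.058% of all tested genes. The count filter favoured higher calls here, since 17 of the 28 genes, 9 of them called, reached its level of 10 counts in all 3 olanzapine pools but not in all 3 control pools. Of all tested genes, 3.88% did so. Of the 11 targets that reached it in all 3 control pools, 3 were called higher, namely Alb, Apoa1 and Apoa2. So the shares and medians of the target lists below describe the tested genes only. Hepatocyte markers were higher in the same pools as these targets, and their part in the target counts was not tested. Of the 44 genes, 5 stand in more than 1 list and 5 are also among the hepatocyte markers, so the lists are not independent of each other.

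Among HNF4A targets, 6 of 8 tested genes were called higher, with a median log2 fold change of 3.17, and 5 of the 8 passed the filter through the olanzapine pools only. Apoa4, an apolipoprotein of lipid-rich particles, had 6, 7 and 1 counts in the controls against 420, 535 and 414 in olanzapine pools, the largest change of this list at a log2 fold change of 6.59 ± 0.39 (SE). Apob, the structural protein of VLDL, rose from 14, 4 and 3 counts to 221, 333 and 268, with a log2 fold change of 5.28. Apoa1 (3.93), Otc (3.19), Apoc3 (3.16) and Apoa2 (2.46) rose as well on the log2 scale. The adjusted p of these 6 genes ran from 0.000162 in Apoa1 to 0.0346 in Otc, which encodes the urea cycle enzyme ornithine transcarbamylase (edgeR, Benjamini-Hochberg). Otc lost its call whichever of the 6 pools was left out, and Apoc3 lost it without control pool 1, olanzapine pool 2 or olanzapine pool 3. Mttp, which loads lipid onto Apob, had 914 to 958 counts in the control pools and 747 to 839 in the olanzapine pools, with a log2 fold change of -0.21 that did not pass (adjusted p = 0.230 from the same edgeR test). The clotting factor gene F9 had a log2 fold change of 1.55 and an adjusted p of 0.214 from the same edgeR test.

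Of the FOXA targets, 4 of 4 tested genes were called higher, with a median log2 fold change of 4.26, also with Igfbp1 set to its bound. All but Alb, 3 of the 4, passed the filter through the olanzapine pools only. Igfbp1, an insulin-like growth factor binding protein of liver, had 0, 0 and 0 counts in the controls against 29, 20 and 36 in olanzapine pools. On the floor of 3 counts, with the olanzapine counts taken as exact, Igfbp1 was at least 28.8-fold higher. Igfbp1 lost its call when any 1 control pool was left out and without olanzapine pool 2 or 3, with adjusted p from 0.0512 to 0.0889, and had 0.101 with the replicate block (edgeR, Benjamini-Hochberg). Pck1, an enzyme of gluconeogenesis, rose from 3, 11 and 3 counts to 133, 176 and 138, a log2 fold change of 4.71 ± 0.47 (SE). Alb rose by 3.80 and Tat, tyrosine aminotransferase, by 2.57 on the log2 scale. Tat lost its call without control pool 2 or 3 and without olanzapine pool 2 or 3, with adjusted p from 0.0530 to 0.0724 (same edgeR test). The number of FOXA targets called fell to 2 without control pool 2 or 3 and without olanzapine pool 2 or 3.

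Of the CEBPA targets, 5 of 6 tested genes were called higher, with a median log2 fold change of 3.34, while Cebpa itself had a ratio of 1.04. Of the 6, 4 passed the filter through the olanzapine pools only. Alb, Pck1, Tat and Otc are shared with the lists above. Cps1, which makes carbamoyl phosphate for the urea cycle, rose from 18, 26 and 7 counts to 169, 220 and 182, a log2 fold change of 3.50 ± 0.40 (SE). Ass1, argininosuccinate synthase, had 2714 to 3088 counts in the control pools and 2468 to 3251 in the olanzapine pools, with a log2 fold change of 0.076 (adjusted p = 0.765, edgeR, Benjamini-Hochberg). The number of CEBPA targets called was 3 without control pool 2 or 3 and without olanzapine pool 2 or 3.

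Of the 6 tested FXR targets, 1 was called higher and 0 lower. All 6 had a log2 fold change above 0, with a median of 1.84, but 5 of them passed the filter through the olanzapine pools only. The list was not split into induced and repressed genes, and it holds genes of bile acid synthesis. Its common direction and median are therefore not read as activity of FXR. Kng1, the kininogen gene, rose from 12, 13 and 5 counts to 110, 155 and 145, a log2 fold change of 3.77 ± 0.37 (SE, adjusted p = 0.00314, edgeR, Benjamini-Hochberg). Slc27a5 and Fetub had log2 fold changes of 1.72 and 1.71 and did not pass. Slc10a1, the bile acid uptake transporter, had 2, 4 and 1 counts in the controls against 18, 15 and 20 in olanzapine pools. Its log2 fold change of 2.88 had an adjusted p of 0.0573 from the same edgeR test, and it was named after its values were seen, as the gene that DESeq2 called in addition. Abcb4, a phospholipid exporter, had a log2 fold change of 0.031. Cyp7a1, the rate-limiting enzyme of bile acid synthesis, had 1 count in olanzapine pool 3 and 0 elsewhere, and 2 genes of the list were at 0 in all pools.

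None of the 8 tested PXR and CAR targets was called by edgeR, and 3 of the 8, Cyp3a11 among them, passed the filter through the olanzapine pools only. Of the 12 genes listed, 6 lay above the controls in every olanzapine pool and 2 below, in raw counts. The shares over all genes with any count were 8.88% and 9.07%. An unadjusted p under 0.05 in edgeR was found for 5 of the 8, of which 3 were higher and 2 lower, beside 17.6% of all tested genes. DESeq2, which called 1.61% of the 18935 genes it gave an adjusted p, called 1, Cyp3a11. Cyp3a11, a drug-metabolizing P450 with near-identical copies, was also named after its values were seen and had 28, 8 and 5 counts in the controls against 46, 77 and 64 in olanzapine pools. Its log2 fold change was 2.19 (adjusted p = 0.117, edgeR, Benjamini-Hochberg), and it was called without control pool 1 (3.26, adjusted p = 0.0401 from the same edgeR test). The transporter gene Abcb1a, which brain endothelium also expresses, had 999, 1088 and 829 counts in the controls against 806, 475 and 386 in olanzapine pools. Its log2 fold change of -0.78 did not pass (adjusted p = 0.182, same edgeR test), but it was called lower without olanzapine pool 1 (-1.17, adjusted p = 0.00668, same edgeR test). Slco1a4 and Por, the other abundant genes of the list, had log2 fold changes of -0.38 and -0.21 and did not pass. Cyp2b10, the classical CAR target, had 0, 0 and 1 counts in the controls against 0, 2 and 4 in olanzapine pools.

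**Figure D4:**
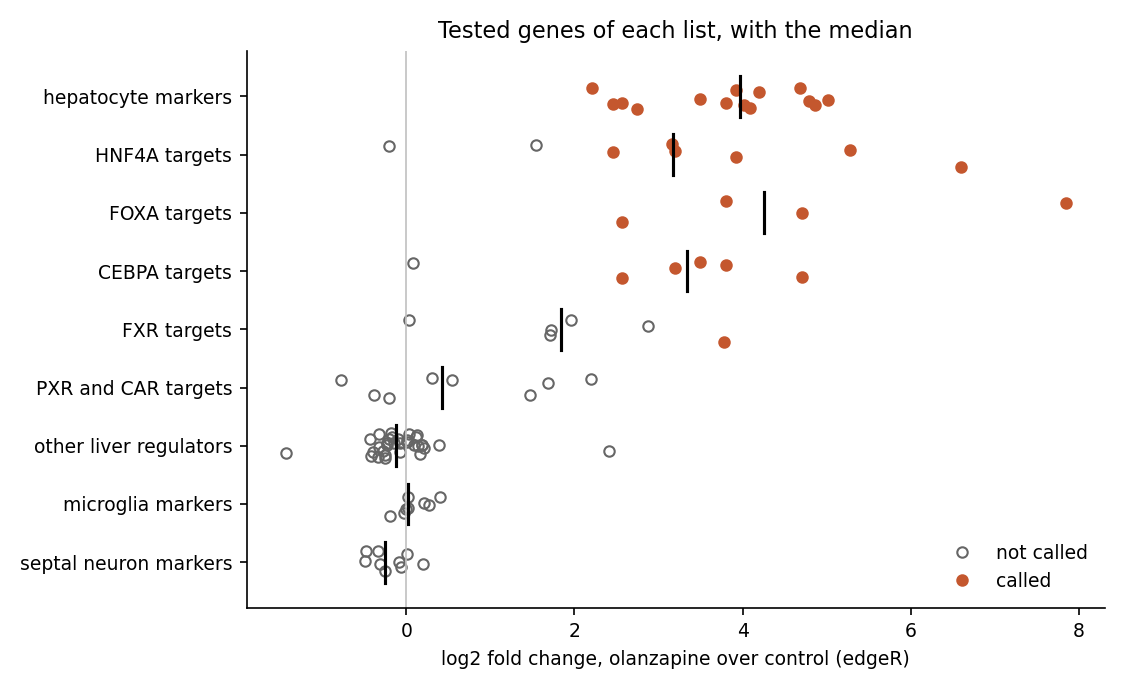
Log2 fold change of the tested genes of each list (points, filled where called) and the list median (line), where the value of Igfbp1, at the far right, depends on the prior count because its control counts are 0. Hepatocyte markers and the targets of HNF4A, FOXA and CEBPA have medians from 3.17 to 4.26, FXR targets 1.84 and PXR and CAR targets 0.42, whereas other liver regulators, microglia markers and septal neuron markers have medians from -0.25 to 0.023.

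None of the wider set of liver regulators passed the test. Of 36 such genes, 32 could be tested, and edgeR called 0 in either direction, beside 1.01% of all tested genes, while DESeq2 called 1. With so few genes, 0 calls do not differ visibly from that share. An unadjusted p under 0.05 was found for 7, of which 2 were higher and 5 lower, beside 17.6% of all tested genes in either direction. Of the 36 genes, 10 lay below the controls in every olanzapine pool and 2 above, beside 9.07% and 8.88% of all genes with any count. Among tested genes these shares were 12.7% and 11.5%. The comparison used raw counts, and every olanzapine pool had a lower total count than every control pool. Their median log2 fold change was -0.12, with 13 of the 32 above 0. The most abundant were Zbtb20 (log2 fold change -0.40), Srebf1 (-0.32) and Xbp1 (0.18), and all 3 missed the threshold. Srebf1, a regulator of fatty acid synthesis, had 3831, 3908 and 4138 counts in the controls against 2595, 3567 and 3219 in olanzapine pools (adjusted p = 0.164, edgeR, Benjamini-Hochberg). Creb3l3, a membrane-bound factor of liver and intestine, was the gene called by DESeq2 and was named after its values were seen. It was the 1 regulator of this list that passed the filter through the olanzapine pools only. Creb3l3 had 9, 2 and 3 counts in the controls against 19, 30 and 26 in olanzapine pools, with a log2 fold change of 2.41 (adjusted p = 0.0962, same edgeR test). Both Rxra, the partner of FXR, PXR and CAR, and Ppara were expressed in every pool, with 1627 to 2150 and 232 to 300 counts. Rxra, Ppara, Cyp7a1 and Cyp2b10 were also named after their values were seen.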

How the data were processed

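Per the labels, fastp, HISAT2, HTSeq and the mm10 build were used, and the authors deposited raw counts per gene and FPKM for the same 6 libraries. Versions, strand setting and treatment of multi-mapped reads are not given in the sources used here. Total counts were 39406866 to 39868872 in the control pools and 38208153 to 38767373 in the olanzapine pools. The members and lists were chosen with earlier results of these data known.

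Counts were scaled with TMM and fitted with edgeR 4.0.16 (R 4.3.3), group as the only term, for the 17255 genes that passed filterByExpr at a minimum count of 10 and total of 15, with its quasi-likelihood test. Each SE was derived from the log2 fold change and the root of F. Calls took the limits of the study, 0.05 for the Benjamini-Hochberg adjusted p and 1 for the absolute log2 fold change, and 174 genes (1.01%) passed both. With 3 pools per group an exact permutation test cannot go below p = 0.1. Member ratios used summed counts, exact conditional binomial intervals and a floor of 3 counts per group, and cover counting error only. Bounds on this floor take the olanzapine counts as exact. Genes named by rule were all members, every called gene and the 3 most abundant others of each regulator and target list, Alb, the 5 closest patterns, and, of the marker lists, genes at 0 and the most abundant. Others are marked as named after their values were seen. The alternatives were DESeq2 1.42.0, RLE scaling, other count filters, a replicate term, limma 3.58.1 on log2 FPKM and leaving out each pool. The fits were tested on simulated data. Gene positions came from GENCODE M21, and promoter windows from RefSeq GRCm38.p6, which matched 9 of 9 members. No column was left unused. Some results of the lists are not reported here.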

Additional observations from a re-analysis of the deposited data

How the results depend on the processing

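The Hnf4a ratio was 34.1 with RLE scaling and 34.7 from mean FPKM, and 33.5 to 34.6 with 1 pool left out. With 1 pool left out, the ratios ranged from 0.659 to 1.51 for Nr1h4, 0.769 to 2.48 for Nr1i2, 3.59 to 9.04 for Nr1i3 as a bound, 0.213 to 0.451 for Foxa1, 1.80 to 3.08 for Foxa3 as a bound, 0.192 to 0.905 for Nr0b2 and 0.910 to 1.19 for Cebpa. The bounds fall without a control pool because the floor of 3 counts then covers fewer libraries.

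The number of genes called in the whole table, 174, was 305 with DESeq2, 401 with no limit on the fold change, 65 with limma on log2(FPKM + 1), 60 with the same without a filter, and 85 to 176 with 1 pool left out. It was 90, 85 and 93 without control pool 1, 2 or 3, and 97 and 90 without olanzapine pool 2 or 3. FOXA targets called numbered 2 in both limma fits on log2(FPKM + 1) and 2 to 4 with 1 pool left out. CEBPA targets called numbered 2 in both of these fits and 3 to 4 with 1 pool left out. In these fits Tat and Igfbp1 kept an adjusted p under 0.05, and their log2 fold changes of 0.78 and 0.57 fell short of the limit of 1. With limma on log2(FPKM + 0.1), 157 genes, 4 FOXA targets, 4 CEBPA targets and 5 HNF4A targets were called. DESeq2 called 2 FXR targets, 1 PXR or CAR target and 1 other liver regulator. With 1 pool left out, 4 to 5 HNF4A targets, 1 FXR target, 0 to 1 PXR or CAR targets and 0 other liver regulators were called. The cause of the other shifts was not tested.

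Whether the pool numbers pair the samples cannot be settled with 3 pools per group. The correlations of same-numbered pools' deviations from the group means were -0.00262, 0.0616 and -0.255. Those of differently numbered pools ran from -0.351 to 0.339. With the replicate block, 86 genes, 2 FOXA targets and 3 CEBPA targets were called, and HNF4A targets numbered 4. The log2 fold change of Abcb4 turned to -0.076 without control pool 1 and ranged from -0.090, without olanzapine pool 3, to 0.12 with 1 pool left out. Of the other single-gene values over all settings, 31 kept their direction and lost their call, 5 gained one and 343 changed neither. Genes with a mean count under 50 had no value under the stricter count filter. No fold was given where both groups held 3 counts or fewer.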
